A study of Macaca mulatta with 6 samples.

Results

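The comparison set adrenal arrays taken at 11 AM, 3 PM and 7 PM against arrays taken at 11 PM, 3 AM and 7 AM, so that all 6 arrays of the series were used, 3 on each side. It asked which adrenal transcripts differed between late morning to evening and late night to early morning. The arrays were assigned by the clock time in their titles, and every probe set that names 1 gene was included, which is 19065 of the 22283 probe sets on the array. Each array held RNA from the left adrenal gland of a different ovariectomized female rhesus macaque, hybridised to a human Affymetrix expression array. All animals had lived in individual cages for 3 months with 12 h of light and 12 h of darkness a day, ate chow at 2 daily meals and were fasted for 12 h before necropsy. Ovariectomy and the fast were shared by both groups, and no intact or fed animals were analysed here. The animals of 11 AM, 3 PM and 7 PM were 10.1, 8.29 and 7.22 years old, and those of 11 PM, 3 AM and 7 AM were 8.19, 12 and 12 years old. Mean age was 8.54 ± 1.45 years (SD, n = 3) from 11 AM to 7 PM and 10.73 ± 2.2 years (SD, n = 3) from 11 PM to 7 AM. The labels do not state the hour of lights-on, so the arrays of 11 AM, 3 PM and 7 PM are called day arrays and those of 11 PM, 3 AM and 7 AM night arrays as names only. Intensities of single arrays are printed in the order 11 AM, 3 PM and 7 PM by day and 11 PM, 3 AM and 7 AM by night.

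The adrenal cortex makes glucocorticoids, mineralocorticoids and androgens from cholesterol, and the chromaffin cells of the medulla make and store catecholamines. In day-active primates plasma cortisol is high around waking and low in the evening, driven by pituitary ACTH and by a clock inside the gland. In that clock BMAL1, paired with CLOCK or NPAS2, activates PER and CRY genes whose products repress it. The same activators drive DBP, HLF and TEF, transcription factors that pass the rhythm on to other genes.

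Both parts of the gland were present on every array. CYP17A1, the hydroxylase of glucocorticoid and androgen synthesis, had intensities of 28646 to 40394, and TH, which makes the precursor of the catecholamines, had intensities of 1903 to 8245. Of 8 cortex markers 7 were on a probe set naming them alone, and of 6 medulla markers 5 were. Summed over those 5, medulla markers were lowest at 3 AM (13569) and highest at 7 AM (34549), both night arrays. Array medians were 167.5, 173.1 and 164.1 by day against 156.4, 163.8 and 154 by night. Every day median thus lay above every night median, narrowly so for 7 PM and 3 AM. Hybridisation controls lay between 414 and 900.5, with the lowest values at 3 AM and 3 PM, which fall on opposite sides. Pearson correlations between arrays over these probe sets ran from 0.914 to 0.927, as a description, since probe sets are not replicates. Each clock time had a single animal, so clock time, age and animal cannot be told apart among the arrays of a group. The p-values measure only this mixed spread among these 6 animals. In whole glands, fewer cells of a type and less RNA per cell cannot be told apart.

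No transcript passed the test after adjustment. By limma's moderated test with Benjamini-Hochberg adjustment over 19065 probe sets, 0 reached an adjusted p of 0.05 (0%), and the smallest adjusted p was 0.808. At an unadjusted p under 0.05 there were 946 probe sets (4.96%), where 953.2 would be expected from chance alone. A nominal threshold was therefore used only to describe the data: an unadjusted p under 0.05 together with at least 1.5-fold. It was met by 439 probe sets that were higher from 11 AM to 7 PM (2.3%) and by 298 that were lower (1.56%). In 1351 probe sets (7.09%) all 3 day arrays lay above all 3 night arrays, and in 712 (3.73%) all lay below. Errors given with ± are standard errors of the limma fit, and every named difference has an adjusted p of at least 0.808. An exact permutation test of 3 against 3 cannot give a two-sided p below 0.1, so separation of the groups is given as a description.

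The share of nominal calls on each side depended on scaling. Higher calls made up 59.6% of the total with the deposited scaling, 44% after quantile normalization (311 higher and 396 lower) and 40.8% after centring each array on its median (307 higher and 445 lower). Most calls were dim. Only 154 of the 439 higher and 136 of the 298 lower calls had a mean at or above an intensity of 157, the median of all non-control probe sets, called the level here. Their median difference was 1.69-fold for higher and 1.73-fold for lower calls. The genes described next had to reach that level, each through the brightest probe set that names it alone, which left 7164 of 11963 genes. Of these, 99 (1.38%) were nominally higher and 88 (1.23%) nominally lower, while 466 (6.5%) and 303 (4.23%) had groups that did not overlap, higher and lower in that order. These shares are the reference for the counts of every list below, and they hold for the deposited scaling only. After centring, 271 of the 7164 genes were separate and higher and 550 separate and lower. After quantile normalization these counts were 433 and 336. Over all 7164 the median difference was 0.03 on the log2 scale, with 54.8% of genes higher, and -0.06 after centring.

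**Figure D1:**
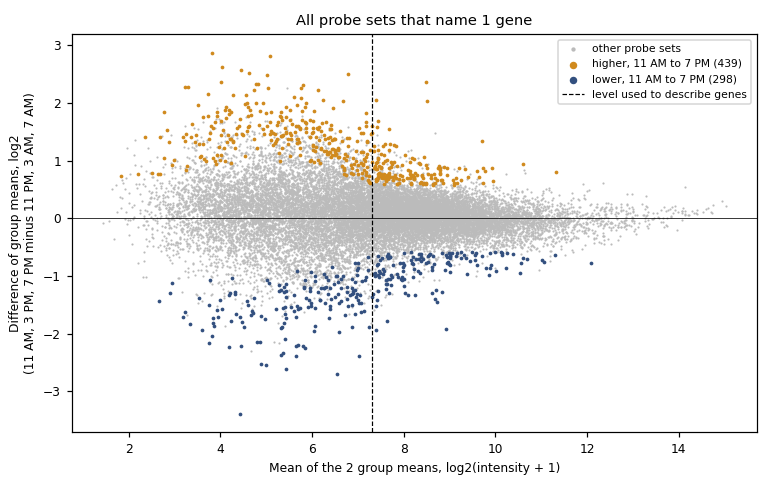
Mean level (x axis, log2 of intensity plus 1) and difference between day and night arrays (y axis, log2) for 19065 probe sets, 1 point each. The 439 nominally higher (orange) and 298 nominally lower (blue) probe sets lie mostly left of the dashed line, which marks the level of 7.30.

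Among genes at the level whose groups were separate, the 12 with the smallest p on the higher side included subunits and enzymes of quite different compartments. HYOU1, a chaperone of the endoplasmic reticulum, had intensities of 1696, 1491 and 925 by day against 424, 536 and 623 by night. All day arrays were above all night arrays, and the highest value was at 11 AM. The difference was 1.35 ± 0.26 on the log2 scale (SE of the limma fit), or 2.54-fold. NDUFC1, an accessory subunit of respiratory complex I, had 259, 286 and 247 by day against 87.7, 86.5 and 109 by night, a difference of 1.48 ± 0.26. Its 3 day arrays lay close together, and its 3 night arrays were below the level of 157, so it reached that level through the group in which it was high. MISP, an actin-bundling protein of the mitotic spindle, and THSD7A, a membrane protein with thrombospondin repeats, were in the same position. MISP had 236, 227 and 396 by day against 66.6, 87.2 and 126 by night, and THSD7A had 277, 208 and 218 by day against 115, 117 and 126 by night.

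MKI67, which encodes the proliferation marker Ki-67, had 520.4, 436 and 523 by day against 273, 313 and 319 by night (0.71 ± 0.18). GCH1, the first enzyme in the synthesis of tetrahydrobiopterin, a cofactor that TH requires, had 444, 562 and 508 by day against 359, 156 and 245 by night (1.07 ± 0.30). Its groups were separate, yet the 11 PM value lay nearer to 11 AM than to 3 AM. The other higher genes ran from MED27, a Mediator subunit, at 1.84-fold and H2BC5, a histone H2B, at 1.83-fold to GRM7, a metabotropic glutamate receptor, at 1.5-fold. Between them were PCDH17, a protocadherin (1.8-fold), PCYT1A, which catalyses the limiting step of phosphatidylcholine synthesis (1.68-fold), and IQGAP2, a scaffold protein that binds actin (1.53-fold).

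**Figure D2:**
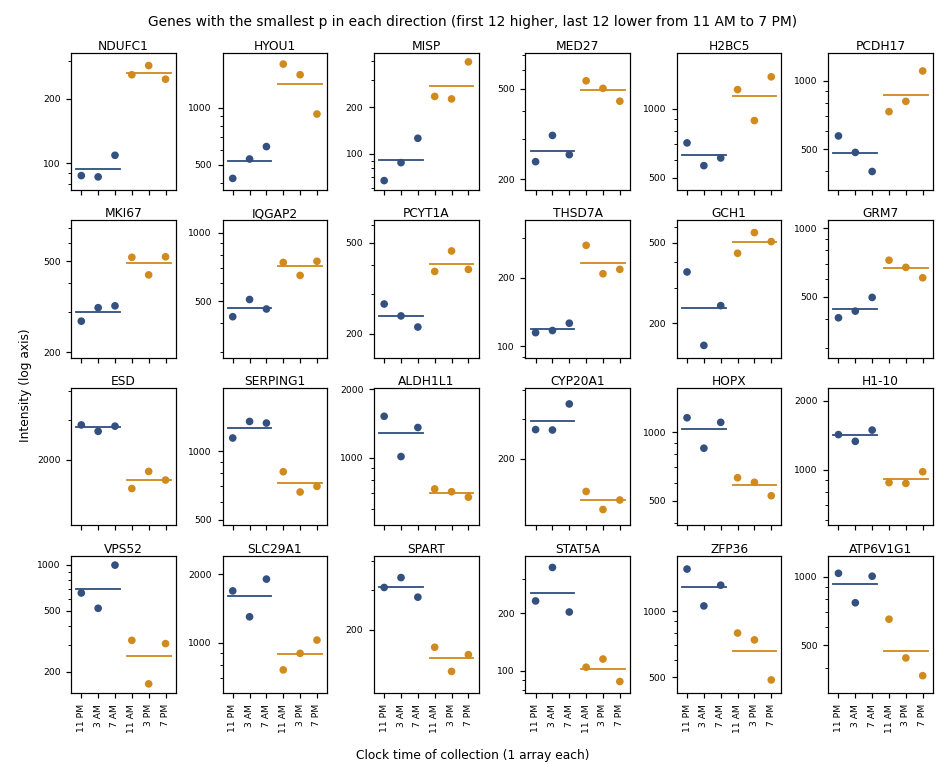
Intensity (log axis) on each array for the 12 genes with the smallest p on each side, blue for 11 PM, 3 AM and 7 AM and orange for 11 AM, 3 PM and 7 PM, with a bar at each group's mean of log2 values. In every panel the groups are separate, as the choice of these genes requires; HYOU1 spans 424 to 1696 and ESD 1497 to 2845.

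The 12 lower genes included enzymes, a complement regulator and transcription factors. ESD, an esterase that acts in formaldehyde detoxification, had 1497, 1779 and 1631 by day against 2845, 2667 and 2809.9 by night (-0.77 ± 0.14). SERPING1, the inhibitor of the first complement component, had 812, 662 and 701 by day against 1142, 1349 and 1328 by night (-0.81 ± 0.16). In both genes the arrays of each group lay close together. SLC29A1, an equilibrative nucleoside transporter, had 760.5, 899 and 1028 by day against 1688, 1299.5 and 1902 by night (-0.86 ± 0.19). STAT5A, a transcription factor activated by cytokines and prolactin, had 105, 115 and 88.1 by day against 232, 346 and 203 by night (-1.30 ± 0.30). STAT5A and the cytochrome P450 CYP20A1 were below 157 on all 3 day arrays. CYP20A1 had 119.9 to 144 by day against 268 to 348 by night, a 2.21-fold difference.

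ALDH1L1, a folate enzyme, had 673 to 731 by day against 1014 to 1522 by night, and HOPX, a homeodomain protein that does not bind DNA, had 526 to 631 by day against 849.7 to 1156 by night. The linker histone H1-10 differed least of the 12, by 1.56-fold. VPS52, a tether of vesicles returning to the Golgi, differed most, by 2.74-fold, with its 7 AM array (995) well above the others. ATP6V1G1, a subunit of the vacuolar proton pump, had 368 to 652 by day against 769 to 1036 by night. SPART, a protein of lipid droplets and endosomes, had 131 to 168 by day against 278 to 339 by night. Its day mean, 7.25 on the log2 scale, was below the level of 7.30. ZFP36 is described with the immediate early genes.

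Second probe sets of these genes did not all go the same way. Of the 24 genes, 10 had another probe set naming them alone and 7 had one at the level, which differed in the same direction for 4 and in the opposite direction for 3. The 3 were ESD, where the second probe set gave 0.014, ALDH1L1, where it gave 0.53, and H2BC5, where it gave -0.10, all on the log2 scale. Across all genes with a second probe set at the level, 1086 of 1898 (57.2%) kept the direction. For nominally higher genes this was 14 of 19 (73.7%) and for nominally lower genes 8 of 20 (40%), so the lower calls did not repeat more often than genes at large. The probe sets used for EIF3B, EIF5A, H2BC5, HBB, HNRNPA1, HNRNPU, HSD17B7, JUN, MRPL35, MT2A, NR4A1, RORA and SPART carry the manufacturer's mark for possible matches to other transcripts.

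The 24 genes were chosen on these same arrays for small p and separate groups, which favours them in any refit of the same values. Age also differed between the groups, so the fits below are no independent test of an effect of age. With age as a covariate in the same limma model, all 24 kept their direction and 23 kept an unadjusted p under 0.05. The exception was GCH1, at 0.66 on the log2 scale. Without the 2 animals of 12 years, at 3 AM and 7 AM, the 11 PM array stood alone for its group and was assumed to vary like the others. Of the 24, 20 then kept a p under 0.05; their direction is fixed here by the choice of genes with separate groups. The 4 that did not were H2BC5, PCDH17, PCYT1A and GCH1, all on the higher side.

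**Figure D3:**
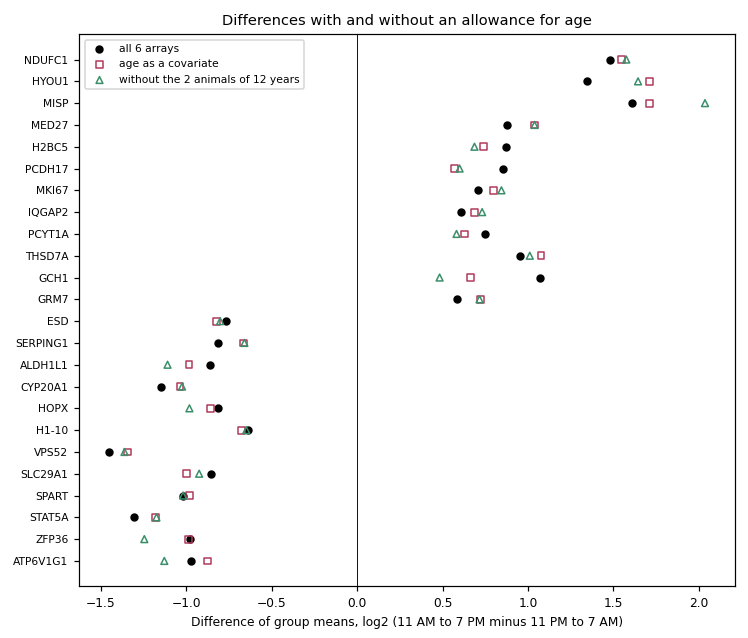
Difference between day and night arrays (x axis, log2) for the 24 genes with all 6 arrays (filled circles), with age as a covariate (squares) and without the 2 animals of 12 years (triangles). GCH1 moves from 1.07 to 0.66 with age as a covariate, and the triangles keep their side of 0 by the choice of genes with separate groups.

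Clock genes held 6 nominal calls, and all were lost with age as a covariate. Of 20 genes listed, 16 were on probe sets naming them alone and 13 reached the level. Among the 13, 2 met the nominal threshold on the higher side (1.38% of all genes did) and 4 on the lower side (1.23%). The median difference was -0.32, with 5 higher and 8 lower, against 0.03 over all genes. CLOCK, 1 of the 5, turned lower after centring. These genes are known as rhythmic in this series, so the count is no independent evidence of a rhythm.

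On the activating side, BMAL1 had 986, 1278 and 1838 by day against 997, 609.5 and 619.8 by night. The 7 PM array was highest, but the 11 PM value lay just above that of 11 AM, so the groups overlapped. The difference was 0.87 ± 0.28, and a second probe set gave 0.88. NPAS2, a partner of BMAL1, was high at both 7 PM and 11 PM, 1714 and 1356, which lie on opposite sides of the comparison. It differed by 0.43 ± 0.46, while its second probe set at the level gave -0.062. CLOCK, the other partner, differed by 0.068 ± 0.23. NFIL3, a repressor that binds the same sites as DBP, HLF and TEF, had 491, 962 and 467 by day against 408, 347 and 249 by night. It was the 1 clock gene whose day arrays were all higher, with its peak at 3 PM (0.88 ± 0.32).

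The output activators were lower together from 11 AM to 7 PM. HLF had 440.2, 364.7 and 126 by day against 473, 571 and 985 by night (-1.24 ± 0.47), and TEF had 292, 186 and 80.3 by day against 311, 378 and 309 by night (-1.01 ± 0.43). Both were lowest at 7 PM, and their groups were separate by narrow gaps, between 11 AM and the nearest night array. DBP had 197, 380.5 and 316 by day against 346, 596 and 748 by night (-0.90 ± 0.34), with overlap at 11 PM and a low at 11 AM. A second probe set of HLF at the level gave 0.21, the opposite direction.

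The repressors did not behave alike. BHLHE40 had 1341, 1105 and 848 by day against 1208, 2014 and 1863 by night (-0.62 ± 0.24), high in the 2 animals of 12 years, and BHLHE41 was likewise highest at 3 AM and 7 AM and lowest at 7 PM (-0.61 ± 0.41). NR1D2, a nuclear receptor that represses BMAL1, differed by -0.73 ± 0.34, and RORA, which activates BMAL1, by -0.32 ± 0.25. A second probe set of RORA gave 0.11. PER2 had 908, 439 and 196 by day against 199, 559.5 and 1248 by night. Its high arrays, 7 AM and 11 AM, and its low arrays, 7 PM and 11 PM, fall 1 in each group, and it differed by only -0.28 ± 0.71. CRY1 was lowest at 11 PM (77.8) and highest at 3 PM (463), a difference of 0.91 ± 0.48.

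With age as a covariate BMAL1 gave 0.39, HLF -0.59, TEF -0.55, DBP -0.70, BHLHE40 -0.20 and NFIL3 0.67. All 6 were then above an unadjusted p of 0.05. In that fit CRY1 gave 1.61 and PER2 turned to 1.05, and both met the nominal threshold. PER3, CRY2 and BMAL2 were below the level, and PER1 and NR1D1 were only on probe sets naming several genes.

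**Figure D4:**
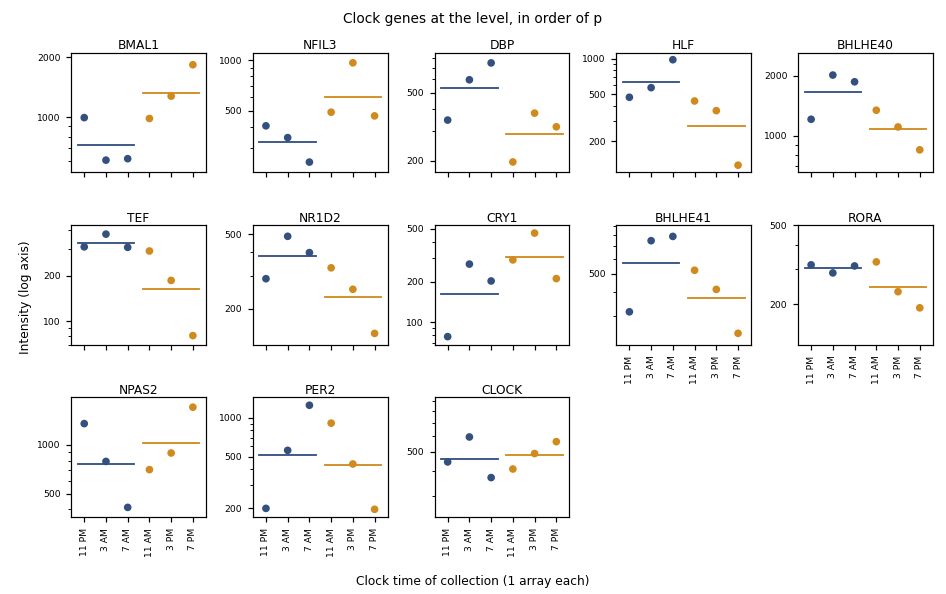
Intensity (log axis) of the 13 clock genes at the level on each array, blue for 11 PM, 3 AM and 7 AM and orange for 11 AM, 3 PM and 7 PM, with a bar at each group's mean of log2 values. NFIL3, HLF and TEF have separate groups, and PER2 spans 196 to 1248 with high and low arrays in both groups.

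Genes that link the clock to metabolism and RNA binding gave a clearer split in CIRBP, a cold-inducible RNA-binding protein that stabilises clock transcripts. It had 2283, 2131 and 2504 by day against 3274, 3144 and 3599 by night (-0.54 ± 0.14), under 1.5-fold but with separate groups. A second probe set of CIRBP gave -0.94, also with separate groups. NAMPT, the limiting enzyme of NAD salvage, had 277 to 338 by day against 413 to 465 by night (-0.57 ± 0.18), while its second probe set gave 0.028. WEE1, a kinase that restrains mitosis and is a known clock target, was higher, with 279.8 to 332 by day against 198 to 219 by night (0.56 ± 0.20). Of the 12 listed genes at the level, 4 were higher and 8 lower, with a median of -0.258, and 0 met the nominal threshold. Among 9 clock kinases and adaptors 0 met it either. The kinase GSK3B was higher with separate groups (0.34 ± 0.19), and CSNK2A1 gave -0.32 ± 0.17. Other probe sets of CSNK2A1 at the level gave -0.013, -0.077 and 0.56, the last with separate groups in the opposite direction.

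Immediate early genes, which are transcribed within minutes of a stimulus such as ACTH, were mostly lower from 11 AM to 7 PM. Of 25 listed, 21 were at the level, and 19 of these were lower and 2 higher, with a median of -0.35. After centring or quantile normalization 1 was higher. The nominal threshold was met by 3, ZFP36, KLF10 and EGR3, all lower, against 1.23% of all genes. The groups did not overlap in these and in JUN and EGR1, all lower, against 4.23% of all genes. ZFP36, which speeds the decay of cytokine mRNAs, had 796, 741 and 485 by day against 1565, 1060.3 and 1320.1 by night (-0.98 ± 0.23). KLF10, a zinc-finger repressor induced by TGF-beta, had 613, 556 and 586 by day against 1196, 916 and 821 by night (-0.72 ± 0.18). Both were highest at 11 PM, and ZFP36 was lowest at 7 PM. EGR3 had 134, 123 and 135 by day against 439, 148 and 518 by night, so its 3 AM value was close to the day arrays. These were all below 157, so it reached the level through 11 PM and 7 AM. JUN, a subunit of AP-1, differed by -0.57 ± 0.17, and EGR1 by -0.49 ± 0.19.

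The list leaned on the 7 PM array. There 1 of the 21 genes exceeded its own mean over the 6 arrays, against 18 at 7 AM and 17 at 11 PM, but 9 at 11 AM, 12 at 3 PM and 7 at 3 AM. Without 7 PM the median was -0.157, with 6 genes higher. The nuclear receptor NR4A1 had 632, 661 and 93.2 by day against 697, 241 and 925 by night, the widest range of the list.

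Genes that respond to glucocorticoids also had a negative median, -0.314 over 13 genes at the level, of which 4 were higher and 9 lower. CEBPD, a transcription factor of the acute response, was the 1 nominal call, with 482, 366 and 334 by day against 704, 559 and 608 by night (-0.67 ± 0.20). GLUL, glutamine synthetase, had 822 to 1059 by day against 1101 to 1462 by night (-0.50 ± 0.17). KLF9, a Krüppel-like factor, was the third gene with separate groups, at -0.19 ± 0.16. Over all genes 1.23% were nominally lower and 4.23% had separate groups on the lower side. Here too 7 PM was low, with 2 of 13 genes above their own mean, and without it the median was -0.128. Tissue steroid levels were not measured.

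Genes of steroid synthesis held 0 nominal calls and 0 separate groups. Of 23 listed genes 17 were at the level, 10 higher and 7 lower, with a median of 0.109 that turned to -0.19, with 4 higher, when age was a covariate. By array, 16 of the 17 exceeded their own mean at 7 PM and 16 at 11 PM, arrays that fall on opposite sides of the comparison. STAR, which delivers cholesterol to the mitochondrion, had 11544, 9938 and 16224 by day against 16413, 9833 and 13054 by night, and CYP11A1, which cleaves its side chain, had 10211, 8378 and 14466 by day against 13939, 7946 and 8903 by night. Both were highest at 7 PM and 11 PM, and their differences were -0.060 ± 0.27 and 0.11 ± 0.29. MC2R, the ACTH receptor, had the largest difference of the list (-1.60 ± 0.74), with an 11 AM value of 23.6 against 161 to 350 elsewhere. Its other probe sets gave 0.26 and 0.51.

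POR, which passes electrons to microsomal P450 enzymes, gave -0.69 ± 0.38 with its highest value at 11 PM (919.7). FDX1, which does so for the mitochondrial ones, gave 0.39 ± 0.33, and 3 AM (5026) stood below the other arrays (10284 to 13008). A second probe set of FDX1 gave -0.12. CYP11B2, aldosterone synthase, gave 0.41 ± 0.26; its transcript is nearly identical to that of CYP11B1, and the array may not separate them.

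Cholesterol synthesis and uptake was even as well, with 10 of 21 genes higher and a median of -0.015 that turned to 0.004 after quantile normalization. HSD17B7, a reductase of the sterol pathway, was the 1 gene with separate groups (556 to 789 by day against 819.7 to 1088 by night, -0.51 ± 0.20). Of all genes, 4.23% were separate and lower. SC5D, a late desaturase, gave 0.64 ± 0.34, LIPE, the hormone-sensitive lipase, -0.78 ± 0.47, and NPC2, a lysosomal cholesterol carrier, -0.31 ± 0.18. In cAMP signalling, the path from the ACTH receptor, 9 of 15 genes were higher with a median of 0.032 (-0.058 after centring) and 0 nominal calls. Its smallest p values were those of the kinase subunit PRKAR2B (-0.33 ± 0.18) and the cyclase ADCY3 (0.36 ± 0.24).

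Catecholamine genes were more often higher, although 3 AM and 7 AM lay at the extremes. Of 17 at the level 14 were higher, with a median of 0.189, and GCH1 was the 1 nominal call. SLC18A1, a vesicular monoamine transporter, had 293, 302 and 215 by day against 119.5, 208 and 206 by night (0.63 ± 0.30), the other gene with separate groups. Over all genes 1.38% were nominally higher and 6.5% separate and higher. After quantile normalization or centring, 1 catecholamine gene had separate groups. NPY, a peptide stored with the amines, differed by 0.46 ± 0.23, and DBH, which makes noradrenaline, by 0.61 ± 0.41. TH differed by 0.34 ± 0.47, with its highest and lowest arrays, 7 AM (8245) and 3 AM (1903), both by night. Without 3 AM 9 of the 17 were higher, without 7 AM 16 were, and without both 3 AM and 3 PM 8 were, with a median of -0.061. The summed medulla markers moved with the list, at 20950 to 26528 on the day arrays and 13569 to 34549 on the others, and their part in it was not tested. Vesicle exocytosis genes had 6 of 8 higher, a median of 0.147 (-0.045 without 11 PM) and 0 nominal calls, with STX1A, a syntaxin of the release machinery, at 0.62 ± 0.27 and SYN1, a phosphoprotein of vesicle surfaces, at 0.37 ± 0.30.

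Cell cycle genes were mostly higher by day with the deposited scaling. Of 29 listed, 11 were below the level, and of the 18 described 16 were higher, with a median of 0.198, against 54.8% of all genes higher. After quantile normalization 14 were, after centring 12 were, and without 11 PM 11 were. MKI67 and CCND1, the G1 cyclin D1, met the nominal threshold, against 1.38% of all genes on the higher side. These and the cyclins CCNA2 and CCNB1 had separate groups, against 6.5% of all genes. After quantile normalization 1 of the 18 had separate groups. After centring 1 did as well, and 1 met the nominal threshold. CCND1 had 673, 447 and 617 by day against 303, 358 and 429 by night (0.66 ± 0.22), while CCNA2 gave 0.55 ± 0.36 and CCNB1 0.27 ± 0.26. The night mean of CCNB1, 7.17 on the log2 scale, was below the level of 7.30. The other 3 probe sets of MKI67 gave 0.24, -0.038 and 0.013. Lymphocyte markers at the level were higher for 6 of 7 as well, summing to 1696 to 2069 on the day arrays and 1300 to 1773 on the others, and their part in this list was not tested.

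Wnt and zona glomerulosa genes, which maintain the outer cortex and its aldosterone-producing cells, were higher in 13 of 21, with a median of 0.137. GLI1, a target of hedgehog signals in capsular progenitor cells, had 191, 274 and 282 by day against 126, 164 and 157 by night (0.72 ± 0.27). Its night mean, 7.22 on the log2 scale, was below the level of 7.30. It thus reached that level through the group in which it was high. WNT4, a ligand made in the zona glomerulosa, had 419, 332 and 358 by day against 161, 186 and 331 by night (0.77 ± 0.30). Both had separate groups, against 6.5% of all genes on the higher side, although the WNT4 values at 7 AM and 3 PM nearly met. Both also met the nominal threshold, against 1.38% of all genes. GLI1 did not meet it with age as a covariate (0.72), nor WNT4 after centring. After quantile normalization or centring, 1 gene of this list had separate groups. In the insulin-like growth factor system 6 of 11 were higher, or 5 after centring, and 0 met the threshold. IGFBP5, a binding protein, gave -0.34 ± 0.14, and of its 4 other probe sets 1 gave -0.17 and the others 0.27, 0.42 and 0.76. IGF1R, the receptor, gave -0.24 ± 0.15.

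Among stress proteins the nominal calls were single genes. Of all genes at the level, 1.38% were nominally higher and 1.23% lower, and 6.5% and 4.23% were separate, in that order. HYOU1 was the 1 nominal call among 21 chaperones and unfolded-protein genes of the endoplasmic reticulum, 12 of them higher, with a median of 0.03, the same as for all genes, and like it -0.06 after centring. ASNS, the asparagine synthetase of the integrated stress response, gave -0.76 ± 0.48. Of 15 cytosolic and mitochondrial heat shock genes 10 were higher, with a median of 0.158. The 2 co-chaperones with the smallest p went opposite ways. DNAJA1 had 501 to 869 by day against 424 to 512 by night (0.57 ± 0.23), and DNAJB4 had 119 to 183 by day against 224 to 293 by night (-0.65 ± 0.27). DNAJB4 was the 1 nominal call of the list, with separate groups, and did not meet the threshold with age as a covariate (-0.71); DNAJA1 was under 1.5-fold. Metallothioneins, zinc-binding proteins that glucocorticoids induce, were higher in 5 of 7, and without 3 AM in 1 of 7. MT3 gave 0.32 ± 0.18, and MT2A gave 0.54 ± 0.43, with 7030.3 at 3 AM and 19838 to 24478 elsewhere; metallothionein transcripts are alike enough to share probes.

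GPX4, the peroxidase that protects membranes from lipid peroxidation, was the 1 nominal call of 19 antioxidant genes. It had 1677, 2268 and 2192 by day against 3775, 2593 and 3152 by night (-0.63 ± 0.19), with separate groups. GCLM, the modifier subunit of glutathione synthesis, gave -0.45 ± 0.20 and PRDX1, a peroxiredoxin, -0.25 ± 0.15, also separate and lower. Over all genes 1.23% were nominally lower and 4.23% separate and lower. Of the whole list 9 of 19 were higher, or 10 after quantile normalization.

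Respiratory complexes II to V and mitochondrial ribosomal proteins leaned lower by small amounts, and complex I was near even. Of 35 genes of respiratory complexes II to V, 7 were higher and 28 lower, with a median of -0.107. Without 11 PM 17 were higher, and the median was -0.013. ATP5PF, a subunit of ATP synthase, was the 1 nominal call (303 to 457 by day against 418 to 723 by night, -0.63 ± 0.27), and ATP5F1E, another, had separate groups (-0.48 ± 0.18). Of all genes, 1.23% were nominally lower and 4.23% separate and lower. Among 25 complex I genes NDUFC1 stood alone as a nominal call, against 1.38% of all genes on the higher side. The complex I median was -0.028 with 10 higher, or 0 with 13 higher after quantile normalization. Without 3 PM the median was 0.07, with 18 higher. NDUFA6 gave -0.42 ± 0.28, while its second probe set gave 0.36. Of 38 mitochondrial ribosomal proteins 11 were higher, with a median of -0.086. MRPL35 had 58.2, 232 and 87.7 by day against 405, 467 and 264 by night (-1.79 ± 0.49), the largest difference of these lists. Its day mean, 6.74 on the log2 scale, was below the level of 7.30, which it reached through the night arrays. MRPS16 (-0.98 ± 0.37) was the other nominal call, against 1.23% of all genes on the lower side. MRPS30 (-0.44 ± 0.16) and MRPS35 (0.46 ± 0.17) were separate in opposite directions, against 4.23% of all genes lower and 6.5% higher.

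In protein and RNA machinery the differences were small. Cytosolic ribosomal proteins were higher in 25 of 49, with a median of 0.001, and after centring in 15 with a median of -0.089. RPS29 gave -0.42 ± 0.17 and RPL11 -0.45 ± 0.20, both with separate groups, against 4.23% of all genes on the lower side. Proteasome genes were higher in 11 of 31, with a median of -0.09 and 0 nominal calls. PSMC2 and PSMC3, ATPases of its cap, gave -0.34 ± 0.17 and -0.48 ± 0.30. Splicing factors were higher in 11 of 35 with a median of -0.081, and 5 had separate groups, all lower, against 4.23% of all genes, or 3 after quantile normalization. The 5 were HNRNPR (-0.50 ± 0.17), HNRNPA1 (-0.48 ± 0.20), SF3A3, HNRNPU and U2AF2. Translation factors were even, 14 of 29 higher. EIF5A, the factor that carries hypusine, was their 1 nominal call, against 1.38% of all genes on the higher side. EIF5A had 593, 546 and 612 by day against 340.3, 473 and 244 by night (0.78 ± 0.25). A second probe set of EIF5A at the level gave 0.12, with groups that overlapped. EIF3B gave -0.33 ± 0.24, and its other probe sets gave -0.07 and 0.22.

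Antigen presentation genes were lower in 14 of 17, with a median of -0.233. TAP1, the peptide transporter of class I loading, had 141, 160.2 and 84.1 by day against 267, 219.7 and 269 by night (-1.01 ± 0.31). Its day mean, 6.97 on the log2 scale, was below the level of 7.30, which it reached through the night arrays. HLA-DMA, which loads class II molecules, had 547, 394 and 273 by day against 477, 924 and 708 by night (-0.80 ± 0.32). TAP1 alone had separate groups, against 4.23% of all genes on the lower side. Both met the nominal threshold, against 1.23% of all genes. With age as a covariate neither met it, TAP1 at -0.92 and HLA-DMA at -0.27. Without the 2 animals of 12 years 8 of the 17 were higher, and the median was -0.021. The 2 animals did not act alike. Leaving out 7 AM alone gave a median of -0.036 with 6 higher, and leaving out 3 AM alone gave -0.302 with 3 higher. Interferon-induced genes were higher in 10 of 20 with a median of 0.018, or -0.072 after centring. IFI35 gave 0.56 ± 0.26 with separate groups, and OAS2, an antiviral nucleotide synthetase, gave 0.56 ± 0.27.

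Among markers of other cells 1 gene, CSF1R, met the nominal threshold, against 1.23% of all genes on the lower side. CSF1R, the receptor for macrophage colony-stimulating factor, had 424, 493 and 339 by day against 679.6, 639 and 595 by night (-0.62 ± 0.19), while AIF1, another macrophage marker, gave 0.73 ± 0.32. The 9 macrophage markers summed to 2601 to 3261 on the day arrays and 2860 to 3450 on the others, 4 of them higher. PDGFRA, a receptor of fibroblasts and capsule, had 656, 633 and 705 by day against 1057, 919 and 974 by night (-0.56 ± 0.14). COL3A1 gave -0.66 ± 0.36, and its other probe sets at the level gave -0.47 and 0.10. The 13 fibroblast and capsule markers summed to 17372 to 21316 and 19073 to 19561, in that order, 8 of them higher, or 5 after centring. PLVAP, a protein of fenestrated endothelium, had 409.7 to 507 by day against 302 to 354 by night (0.47 ± 0.18), TEK gave 0.60 ± 0.30, and 8 of 11 endothelial markers were higher, or 5 after centring, with sums of 3993 to 4681 and 3778 to 4929.

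Smooth muscle markers had the highest median of any list, 0.397 over 8 genes, with 6 higher. Their sums of 6306 to 10376 on the day arrays and 4925 to 9600 on the others overlapped, and without 11 PM the median was 0.032. TAGLN gave 0.51 ± 0.26 and ACTA2 0.45 ± 0.25. Among lymphocyte markers IL7R gave 0.47 ± 0.22 with separate groups and CD3D 0.39 ± 0.26. Of 6 adipocyte markers 3 were higher, or 0 after centring, with LPL at -0.81 ± 0.38 and PPARG at -0.50 ± 0.33. The 2 red cell markers (HBB 0.24 ± 0.24, AHSP -0.061 ± 0.25), the 5 of Schwann cells and glia (GFAP 0.27 ± 0.20, MBP 0.39 ± 0.38) and the 3 of kidney (SLC12A3 0.52 ± 0.33, AQP1 0.30 ± 0.21) gave 0 nominal calls. Other probe sets of HBB gave -0.10 and -0.08. No marker was listed at 0 on any array.

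**Figure D5:**
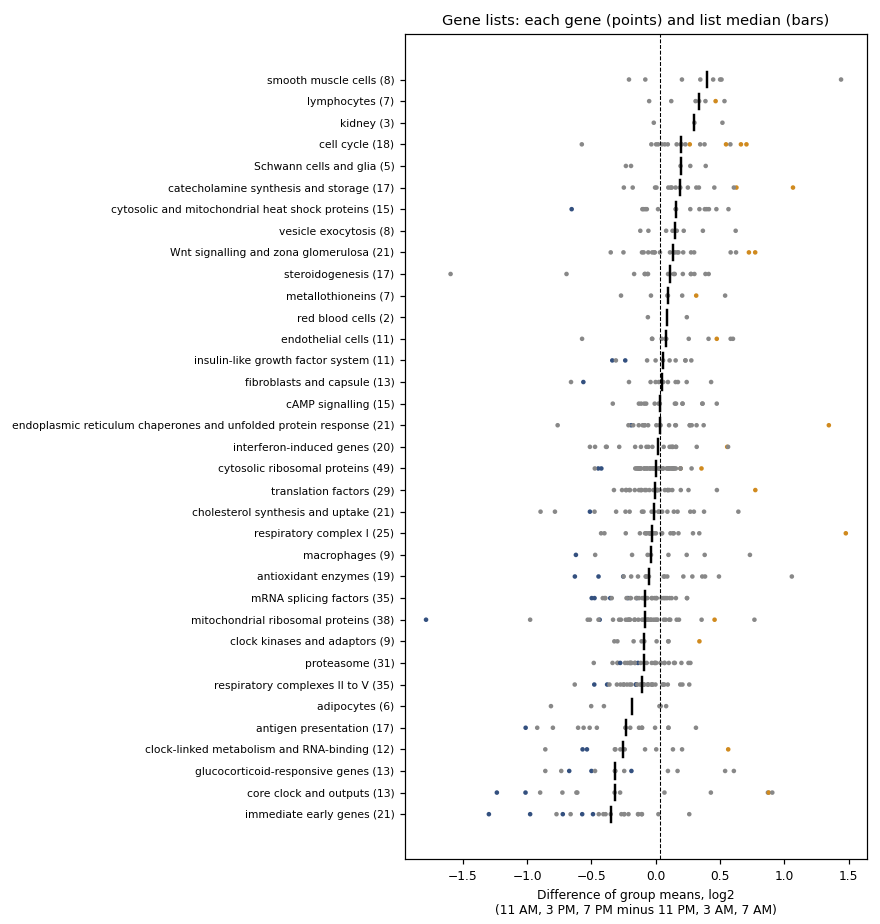
Difference between day and night arrays (x axis, log2) for every gene at the level in 35 lists, 1 point a gene, with the number of genes in brackets, a bar at each list's median and a dashed line at the median of all genes (0.03). Orange and blue points have groups that do not overlap, higher and lower from 11 AM to 7 PM; immediate early genes have a median of -0.35 and smooth muscle markers the highest (0.397).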

How the data were processed

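Per the labels, left adrenal RNA from 6 macaques was labelled and hybridised to 1 array each. The deposited values are linear intensities, 1 for each probe set on each array, and run from 0.1 to 40394; their scale was read from the values. The mean trimmed by 2% at each end lay between 325.04 and 325.09 on every array, so the authors had scaled the arrays alike before deposit, by software that the labels do not name. The probes follow human sequence, so no probe set's level was compared with another's. Of 22283 probe sets, 68 were controls, 1043 named several genes and 2107 none in the platform annotation, which can be old.

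Values were converted to log2(value + 1), so fold changes of dim probe sets are understated, and 3 arrays were set against 3 with limma 3.58.1 in R 4.3.3 (lmFit, eBayes with a trend, two-sided, Benjamini-Hochberg over 19065 probe sets, 4 residual degrees of freedom). The fit was also run on simulated data with independent noise and planted shifts. Those data held no age difference between groups, so they do not test the comparison in these animals. Labels do not number replicates; the 3 arrays of a group stood as its replicates. Alternatives were filters on level, 1 probe set per gene, a pseudocount of 32, quantile normalization, median centring, other priors, age as a covariate, and leaving out arrays.

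The named genes were the 12 with the smallest p in each direction among those at the level with 1.5-fold and separate groups, every clock gene at the level, the 4 members with the smallest p of steroidogenesis, cholesterol and catecholamine lists, and the 2 of each other list. Other names were chosen after their values were seen, mostly to identify the members of a small count. The comparison, the 35 lists and the tests were chosen with earlier results of these data known. Promoter sequences were not used here.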

Additional observations from a re-analysis of the deposited data

How the results depend on the processing

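No probe set reached an adjusted p of 0.05 by limma under any alternative tried, and the smallest adjusted p was 0.1277, without 11 PM. Counts of nominal calls and of separate groups shrank where fewer probe sets were tested: 177 higher, 147 lower and 1070 separate with a filter at the median level, 43, 65 and 499 with one at the upper quartile, and 259, 181 and 1295 with 1 probe set per gene, against 439, 298 and 2063. Leaving out single arrays gave 405 to 613 higher and 316 to 391 lower calls, and 3785 (without 3 PM) to 4289 (without 3 AM) with separate groups, since fewer arrays separate more easily. Without 3 AM and 3 PM, the arrays with low hybridisation controls, there were 6493 separate, and without 3 AM and 7 AM, the animals of 12 years, 9692 separate and 738 higher calls. Of the 24 genes with the smallest p, GCH1 and GRM7 missed an unadjusted p of 0.05 without 3 AM and 3 PM. With age as a covariate there were 596 higher and 358 lower calls. Without a trend in the prior there were 594 higher and 309 lower. No paired analysis was possible because the labels number no replicates and give 1 animal to each clock time.

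Of 1764 values of named genes under alternatives, 25 took the opposite sign, all of genes outside the nominal threshold with all arrays; the cause was not tested. With age as a covariate these were BHLHE41 (0.149), NPAS2 (-0.351), PER2 (1.047), CLOCK (-0.005) and MBP (-0.22). After centring CLOCK gave -0.022. Without 3 AM and 7 AM they were BHLHE41 (0.249), NPAS2 (-0.404), PER2 (1.098), FDX1 (-0.183), NPC2 (0.012), ADCY3 (-0.091), MT2A (-0.161) and MBP (-0.339). Without 3 AM and 3 PM they were FDX1 (-0.013), DBH (-0.061) and MT2A (-0.068). Over the fits without 1 array, NPAS2 ran from -0.015 (without 7 AM) to 0.845, PER2 from -0.964 to 0.356 (7 AM; 0.284 without 7 PM), and CLOCK from -0.088 (7 AM; -0.041 without 7 PM) to 0.25. FDX1 ran from -0.013 (3 AM) to 0.673, MT2A from -0.01 (3 AM) to 0.89 and AHSP from -0.176 to 0.046 (7 PM). The spread within a group of 3 arrays mixes animal, age and clock time. No difference was separated from it once the p-values were adjusted over all probe sets.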
